A study of Caenorhabditis elegans with 12 samples.

Results

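The libraries described here compare worms raised on bacteria expressing double-stranded RNA against prp-19 with worms raised on bacteria carrying L4440, the empty control vector, with no atp-2 RNAi in either group. They are 6 of the 12 libraries of the study, 3 with each label. The members were taken by their labels, not by any measured value. All worms, controls included, were Caenorhabditis elegans of strain glp-4(bn2), a temperature-sensitive allele that leaves adults with few germ cells at the restrictive temperature, and were collected whole on day 1 of adulthood. Polyadenylated RNA was sequenced. The other 6 libraries carried the same labels plus atp-2 RNAi, which targets a subunit of the mitochondrial ATP synthase. The labels do not give the feeding schedule, the temperature or whether the 3 libraries of a group came from separate cultures. The p-values therefore measure the spread between libraries only, and that spread was estimated over all 12 libraries of the study. Counts from a fit of the 6 libraries alone are given with the processing.

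PRP-19 is a ubiquitin ligase that forms the core of the Prp19 complex, a set of proteins that joins the spliceosome as it becomes active and is needed for introns to be removed. Its partners in that core are CDC-5L, PLRG-1 and BCAS-2, and a wider group of factors binds with them. Nearly all protein-coding genes of the worm hold introns, so the machinery serves most of the transcriptome. The counts used here are per gene and hold no information on splice sites.

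Counts of the targeted gene were not lower. The level of prp-19 was 27.1, 24.3 and 28 CPM (read counts scaled to library size with TMM factors, which set the bulk of genes level) in the controls and 84.1, 37.9 and 40.9 CPM in the group with the prp-19 label. The groups did not overlap and replicate 1 of the labelled group stood well above the other two. The log2 fold change was 1.04 (SE 0.37, adjusted p = 0.0401, edgeR quasi-likelihood test with Benjamini-Hochberg adjustment over all genes tested, as for every adjusted p here). It was 0.56 with adjusted p = 0.121 without that replicate, and leaving out control replicates 1, 2 and 3 in turn gave adjusted p = 0.0902, 0.106 and 0.086. Counts per gene cannot tell the worm's own transcript from RNA of the fed sequence, so how far the worm's prp-19 transcript changed cannot be read from them. The groups are therefore named by their labels below. The gene atp-2, which no library here was meant to target, stood at 1635, 1609 and 1609 CPM in controls and 894, 971 and 1176 CPM in the labelled group (log2 fold change -0.68, SE 0.08, adjusted p = 1.54e-06).

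Library totals ran from 6731808 to 7503486 counts in controls and from 6786918 to 8022673 in the labelled group, and 12850 of the 45132 genes in the table had enough counts to test. Vitellogenin transcripts, which encode yolk proteins, took 22.9%, 21.9% and 25.7% of control counts and 6.85%, 10.4% and 17.7% of the others. TMM scaling factors were 0.783 to 0.839 in controls and 1.01 to 1.26 in the labelled libraries, so the choice of scaling matters. Over all genes the log2 fold change had a median of 0.06 with TMM and 0.54 when library totals were used, and every change below is relative to the bulk of genes. A change of scaling shifts all genes by nearly the same amount. The distance of a list median from the all-gene median therefore stays nearly fixed whatever the data (it moved by at most 0.061), and this is no check on the scaling. Replicate 3 of the labelled group stood apart on the principal components of the 6 libraries. On the first, which holds 79.6% of the variance and separates the groups, it lay nearer to the controls (44 against 60.6 and 56.8), and on the second it lay farthest out (-28.7). The larger changes without it are given beside the result.

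In whole worms, a higher or lower level may come from a different share of cells of a type or from a different amount of RNA per cell, and these cannot be told apart. Intestine, muscle, neuron and hypodermis markers were present in every library. The intestinal regulator elt-2 stood at 28.4 to 35.1 CPM in controls and 32 to 39.1 CPM in the labelled group. The pan-neuronal gene unc-119 stood at 13.2 to 15.7 CPM and 13.2 to 17.4 CPM, and the muscle myosin unc-54 at 1791 to 3436 CPM and 2268 to 3159 CPM. These 3 markers overlapped between groups. The adult cuticle collagen col-19 was at 1463 to 1634 CPM and 1969 to 2372 CPM, which did not overlap.

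Under the TMM scaling 7520 genes, 58.5% of those tested, passed an adjusted p under 0.05, with 3859 higher (30.0%) and 3661 lower (28.5%) in the labelled group. Scaling by library totals gave 7374 genes higher and 1591 lower, and with totals outside the vitellogenins 5798 higher and 2333 lower. At least a 2-fold change was seen in 1682 genes upward (13.1%) and 1153 downward (8.97%). The values of the 3 libraries of each group did not overlap in 7739 genes (60.2%). Among the 7008 called genes without overlap, replicate 3 of the labelled group was the nearest to the control mean in 3550 (50.7%). Without that library 3892 genes were called higher (29.7%) and 3950 lower (30.1%).

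Calls were spread over genes of every intron class. Among protein-coding genes without introns in the Ensembl annotation, 59.3% of 167 were called and the median log2 fold change was 0.02. Genes with more than 10 introns had 55.4% of 1523 called and a median of -0.01, and the highest median, 0.12, belonged to the 2383 genes with 1 to 2 introns. The X chromosome had more falls than rises, with 408 genes higher and 686 lower of 1850 (median -0.09), which turned to 888 higher and 325 lower with library totals (median 0.39, against 0.54 over all genes). Chromosome III had 667 higher and 499 lower of 2015 (median 0.13). Directions also varied with level. Among 1174 genes with a mean of 100 to 500 CPM, 694 fell and 221 rose (367 and 495 with library totals), and among 3944 genes at 5 to 20 CPM, 1387 rose and 856 fell.

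**Figure D1:**
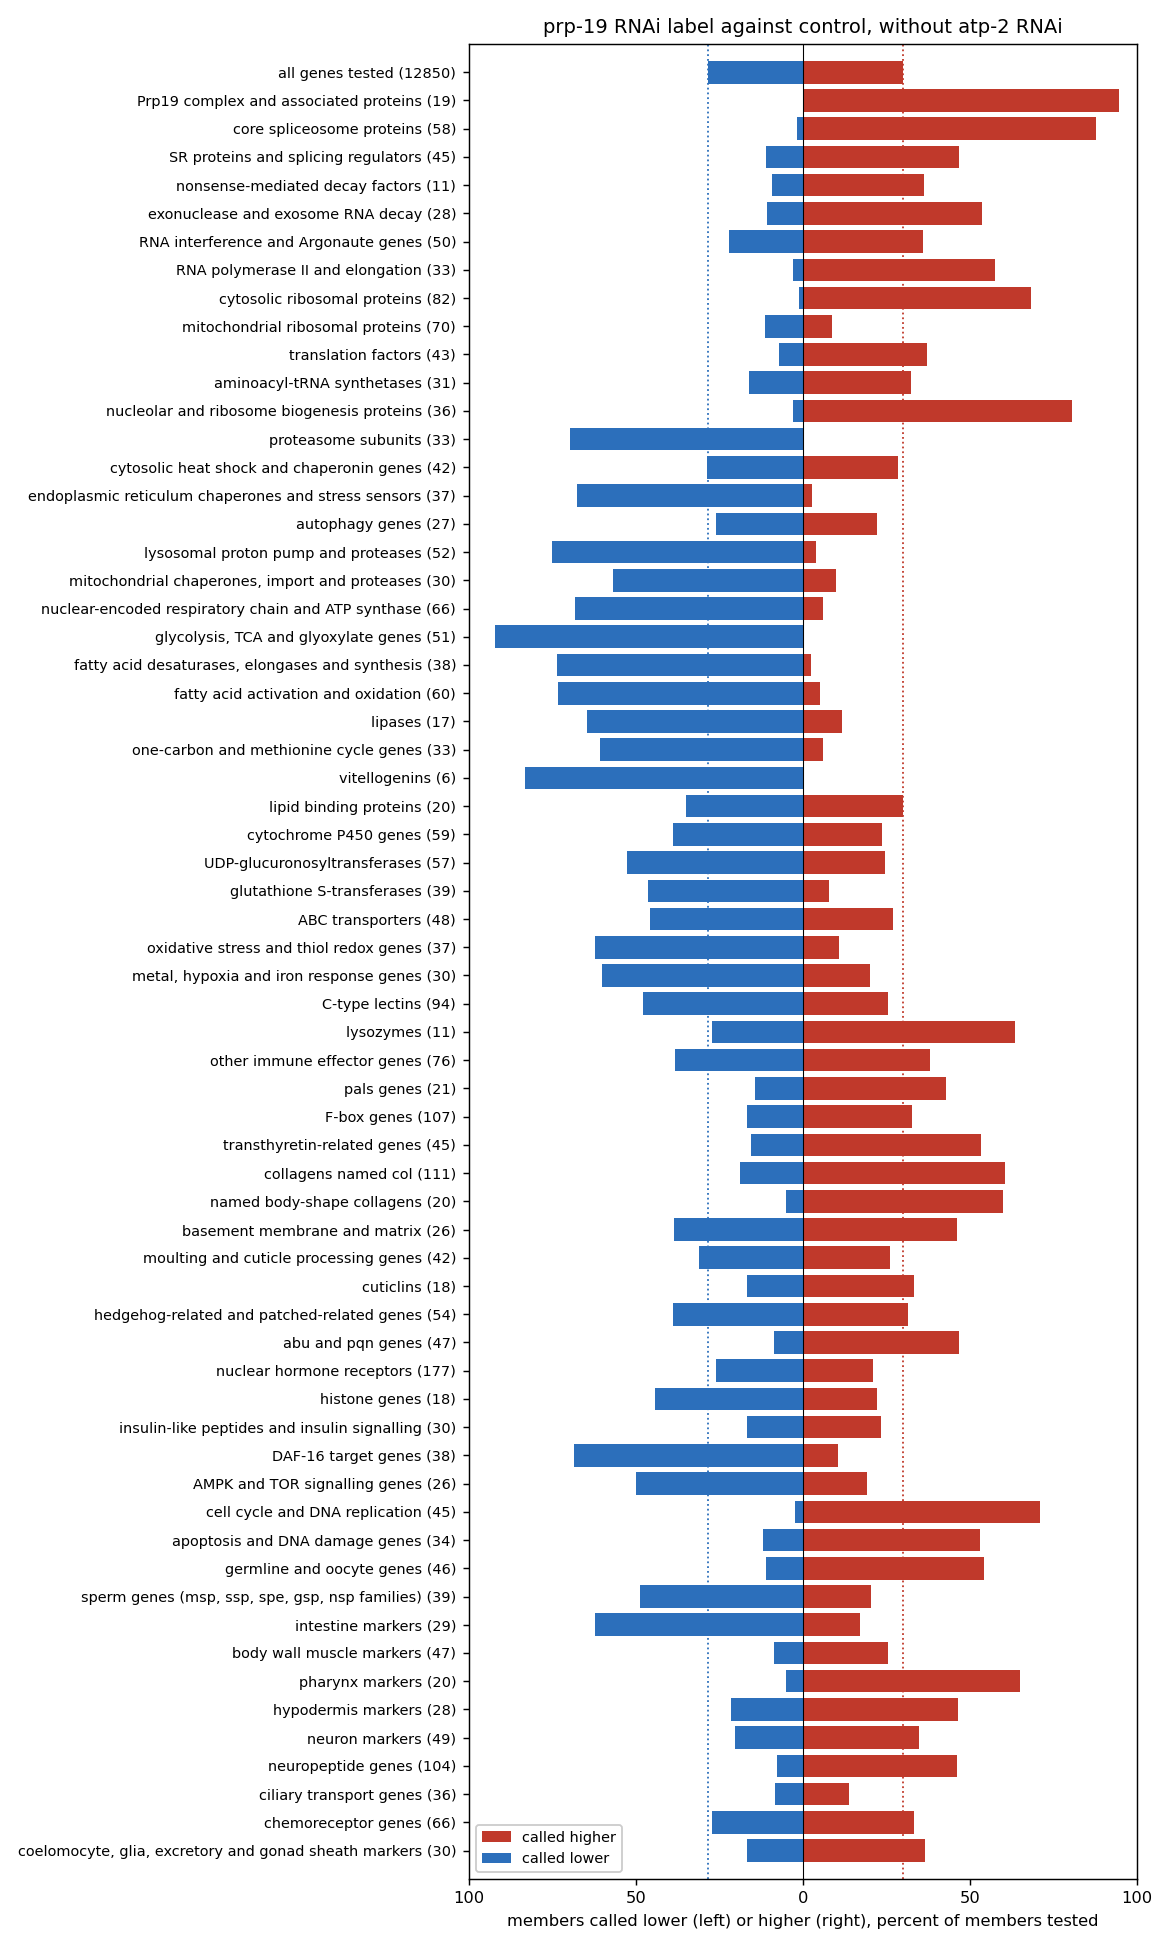
Share of tested members called higher (right) and lower (left) at an adjusted p under 0.05 in the group labelled prp-19 RNAi, for 63 gene lists with the number tested in brackets. Dotted lines mark the shares over all genes, 30.0% higher and 28.5% lower. Under TMM scaling spliceosome and ribosome assembly lists extend to the right, and energy metabolism, lysosomal and proteasome lists to the left. With library totals the proteasome median turned to 0.233, and the lysosomal list had 15 lower and 13 higher (median -0.02).

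Genes of the spliceosome rose together. Of 19 genes of the Prp19 complex and its associated proteins, 18 were higher and none lower, 14 of them by at least 2-fold, with a median log2 fold change of 1.62 against 0.06 over all genes. The summed level of the list was 409, 395 and 389 CPM in controls and 1061, 1063 and 1056 CPM in the labelled group. Leaving out replicate 3 gave the same counts. The core spliceosome list, with the snRNP proteins and the helicases that remodel them, had 51 of 58 members higher and 1 lower (median 1.17).

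The 3 core partners of PRP-19 all rose. The level of cdc-5L was 35.8, 39.9 and 34 CPM in controls and 116, 127 and 123 CPM in the labelled libraries (log2 fold change 1.74, SE 0.08). The log2 fold changes were 1.91 (SE 0.11) for plrg-1 and 0.94 (SE 0.13) for bcas-2, and neither overlapped between groups. Their replicates lay close together in the labelled group, unlike those of prp-19 itself. The level of eftu-2, the GTPase of the U5 particle, was 40.6, 38.1 and 41.1 CPM in controls and 230.5, 238 and 229.5 CPM in the labelled group. Its log2 fold change was 2.54 (SE 0.08, adjusted p = 3.54e-15), the largest of its list. The log2 fold change of prp-8, the protein at the centre of the U5 particle, was 1.45 (SE 0.12). The associated factor syf-1 moved from 17.5, 17.2 and 19.2 CPM to 86.7, 88.6 and 74.6 CPM (2.21 on the log2 scale, SE 0.10), and isy-1 from 6.84, 7.26 and 6.35 CPM to 35.2, 32.2 and 36.1 CPM (2.33, SE 0.12). The isy-1 locus overlaps another gene, F53B7.7, and the strand setting of the counting is not given. Such overlaps are marked below for some genes only. The gene prp-4, whose human counterpart is a protein of the U4/U6 particle, rose by 2.46 (SE 0.14), and it overlaps C36B1.6. The single core member called lower was lsm-1, a subunit of the cytoplasmic ring that helps to remove caps, at 11.5, 14.2 and 12.5 CPM against 9.38, 9.84 and 10.9 CPM. Its log2 fold change of -0.34 (SE 0.13, adjusted p = 0.0326) turned to 0.14 with library totals and lost its call without replicate 2 or 3 of the controls or replicate 1 or 2 of the labelled group (adjusted p = 0.138, 0.0545, 0.0853 and 0.0696).

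Splicing regulators rose more often than they fell. Of 45 tested SR proteins and related regulators, 21 rose (46.7%) and 5 fell (11.1%), with a median of 0.25. Over all genes the shares were 30.0% and 28.5%. With library totals 38 of these regulators rose and none fell. The gene rsp-7, an SR-family protein, stood at 21.8, 22 and 23.8 CPM in controls and 66.5, 63.8 and 66.7 CPM in the labelled group (1.54 on the log2 scale, SE 0.08). The gene rnp-6, the worm counterpart of the splice-site factor PUF60, rose by 1.52 (SE 0.08). The hnRNP gene hrpa-2 fell from 113, 108 and 123 CPM to 54.3, 72.3 and 88.6 CPM, with replicate 3 nearest to the controls (log2 fold change -0.68, SE 0.13, and -0.88 without that library). The hrpa-2 call was lost with library totals (-0.21, adjusted p = 0.0602).

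Among RNA surveillance genes, 15 of 28 exonuclease and exosome genes rose and 3 fell (median 0.42). The exosome helicase mtr-4 went from 18.8, 22 and 20.4 CPM to 72.8, 83.7 and 75.5 CPM (log2 fold change 1.93, SE 0.09, adjusted p = 4.08e-12). Of 11 nonsense-mediated decay factors, 4 rose, 1 fell and 6 were not called (median 0.16), and without labelled replicate 3 the counts were 4 higher and 3 lower. The factor smgl-2 rose by 2.28 (SE 0.18), smg-7 by 0.76 (SE 0.16), smg-8 by 0.61 (SE 0.12) and smg-4 by 0.38 (SE 0.12). The kinase gene smg-1 fell by 0.60 (SE 0.18, adjusted p = 0.015), a call lost without replicate 3 of the controls (adjusted p = 0.0538), in the 6 libraries alone (0.0545) and with library totals (log2 fold change -0.13, adjusted p = 0.358) or totals outside the vitellogenins (-0.33, adjusted p = 0.0822). The smg-4 call was also lost without control replicate 1 or 3 or labelled replicate 2 (adjusted p = 0.0627, 0.0635 and 0.0662).

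RNA interference, by which the bacterial double-stranded RNA acts, has genes of its own. Of 50 tested members 18 rose and 11 fell, with a median of 0.18. The germline Argonaute prg-1, which binds piRNAs, rose from 31.7, 22.5 and 25.7 CPM to 72.7, 77.0 and 70.3 CPM (log2 fold change 1.46, SE 0.10, adjusted p = 3.67e-10). The nuclear Argonaute hrde-1 also rose, by 1.78 (SE 0.20). The Argonaute csr-1 fell from 185, 185 and 206 CPM to 53.8, 74.7 and 82.5 CPM (log2 fold change -1.45, SE 0.12, adjusted p = 4.27e-08). The csr-1 locus overlaps frpr-10. Of 33 RNA polymerase II, Mediator and elongation genes, 19 rose and 1 fell, or 18 and 4 without labelled replicate 3. The polymerase subunit rpb-5 rose by 1.98 (SE 0.12), and mdt-15, a Mediator subunit known for its role in lipid metabolism, fell by 0.64 (SE 0.12). The mdt-15 call was lost with library totals (-0.17, adjusted p = 0.123).

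**Figure D2:**
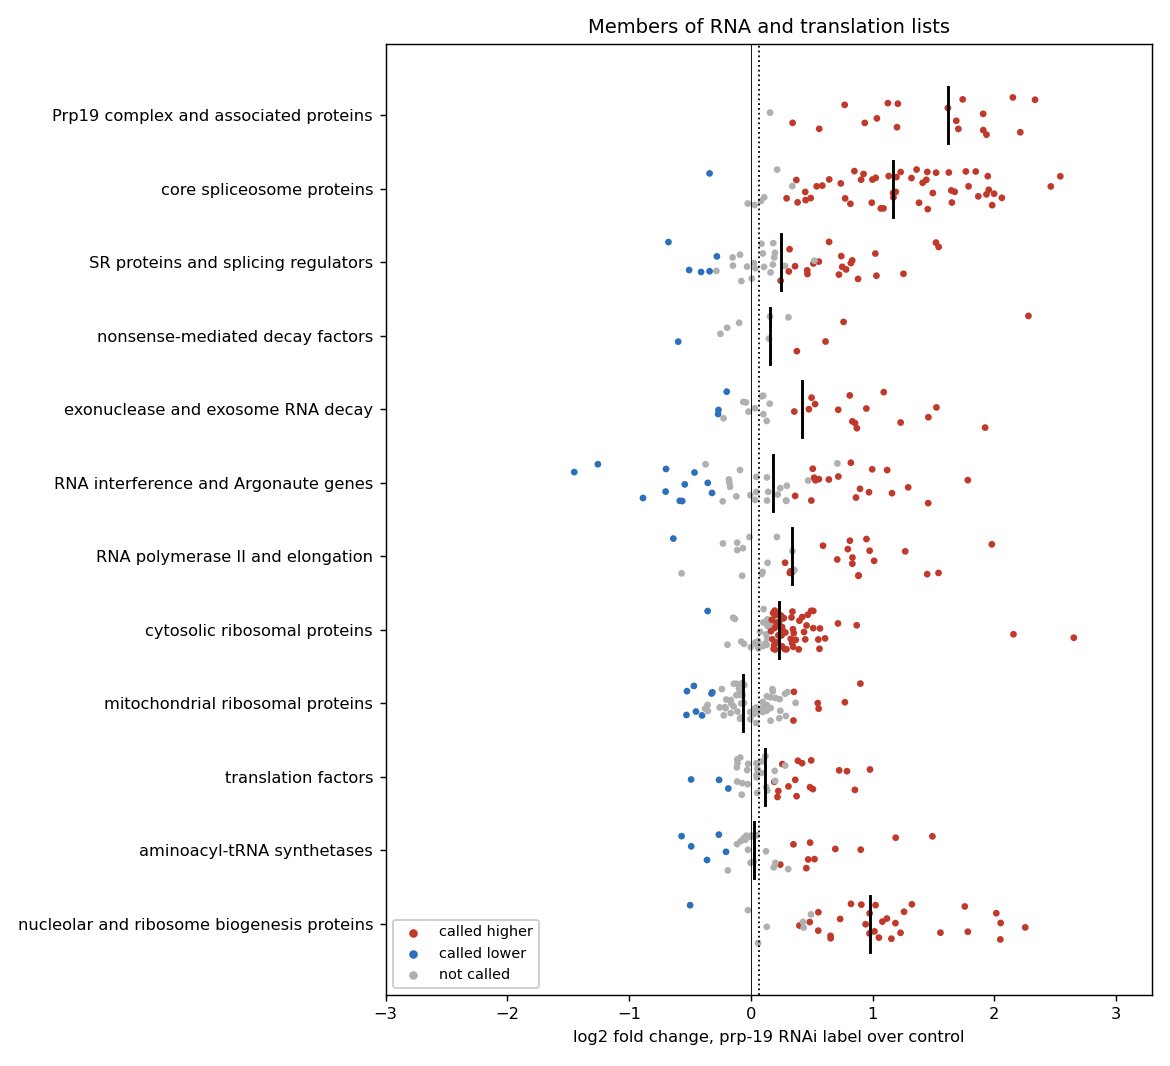
Log2 fold change (prp-19 RNAi label over control, TMM scaling) of each tested member of 12 RNA processing and translation lists. Each point is 1 gene, coloured by its call, black bars are list medians and the dotted line is the median of all genes (0.06); the Prp19 complex (1.62), core spliceosome (1.17) and ribosome biogenesis (0.98) medians lie farthest to the right. The mitochondrial ribosomal protein median, -0.06, turns to 0.42 with library totals.

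The ribosome and its assembly genes rose by different amounts. Ribosome assembly factors, which process ribosomal RNA and join proteins to it in the nucleolus, had 29 of 36 tested members higher and 1 lower (median 0.98). The assembly gene lpd-6 stood at 17, 14 and 13.1 CPM in controls and 70, 72.1 and 69.2 CPM in the labelled group (2.25 on the log2 scale, SE 0.10, adjusted p = 7.9e-13). Of 82 cytosolic ribosomal protein genes 56 rose and 1 fell, with a median of 0.23. Without labelled replicate 3 the counts were 47 higher and 6 lower. The share of all counts held by these genes was 3.80%, 4.02% and 3.87% in controls and 6.93%, 6.23% and 6.11% in the labelled group, which did not overlap. The exact two-sided permutation test gave p = 0.1, the smallest that 3 against 3 allows. These shares are of raw counts, without TMM factors, a scale on which the median of all genes is 0.54. The TMM-scaled sum of the list rose less, from 45400, 47930 and 49390 CPM to 55130, 53450 and 60250 CPM.

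The gene rpl-11.1 moved far more than most of its list, from 29.4, 23.9 and 22 CPM to 169.5, 154 and 153 CPM (log2 fold change 2.65, SE 0.10, adjusted p = 7.1e-14). The level of rpl-24.2, whose human counterpart is an assembly factor, was 26.4, 28.7 and 29.4 CPM against 129.9, 121 and 127 CPM (2.16 on the log2 scale, SE 0.08), at a locus that overlaps C03D6.1. The one ribosomal protein gene called lower, rpl-41.1, had a log2 fold change of -0.35 (SE 0.09) that turned to 0.13 with library totals. Translation factors had 16 of 43 members higher and 3 lower (median 0.12), and eif-2A rose by 0.98 (SE 0.07). Aminoacyl-tRNA synthetases, which load amino acids on tRNAs, had 10 of 31 higher and 5 lower with a median of 0.02 that was -0.002 without labelled replicate 3. The cytosolic synthetases wars-1 and nars-1 rose by 1.49 (SE 0.09) and 1.19 (SE 0.09). Of 70 mitochondrial ribosomal proteins 6 rose and 8 fell, or 3 and 9 without labelled replicate 3. Their median of -0.06 became 0.42 with library totals, where 45 rose and none fell.

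Genes of energy metabolism fell together. Of 51 tested genes of glycolysis, the TCA cycle and the glyoxylate cycle, 47 fell and none rose, 15 of them by at least 2-fold, with a median log2 fold change of -0.84 (-0.36 with library totals). The level of icl-1, the glyoxylate cycle enzyme that lets worms make sugar from fat, was 2644, 2576 and 2768 CPM in controls and 597, 769 and 873 CPM in the labelled group (log2 fold change -1.83, SE 0.10, adjusted p = 4.48e-11). The glycolytic aldolase gene aldo-2 fell from 2336, 2501 and 2537 CPM to 661, 651 and 963 CPM (log2 fold change -1.70, SE 0.11), and it overlaps F01F1.3. In both genes every labelled library lay well below every control.

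Nuclear genes of the respiratory chain and ATP synthase had 45 of 66 members lower and 4 higher (median -0.57, or -0.70 without labelled replicate 3 and -0.09 with library totals). The complex II gene sdhb-1 was at 219, 235 and 213 CPM against 101, 105 and 109 CPM (log2 fold change -1.07, SE 0.07). The complex III gene ucr-11 fell by 1.11 (SE 0.10). Mitochondrial chaperones, import factors and proteases had 17 of 30 lower and 3 higher, with a median of -0.24 that turned to 0.24 with library totals. Among them immt-1, which organises the inner membrane, fell by 0.68 (SE 0.08), whereas ubl-5, a regulator of the mitochondrial unfolded protein response, rose by 0.75 (SE 0.14).

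**Figure D3:**
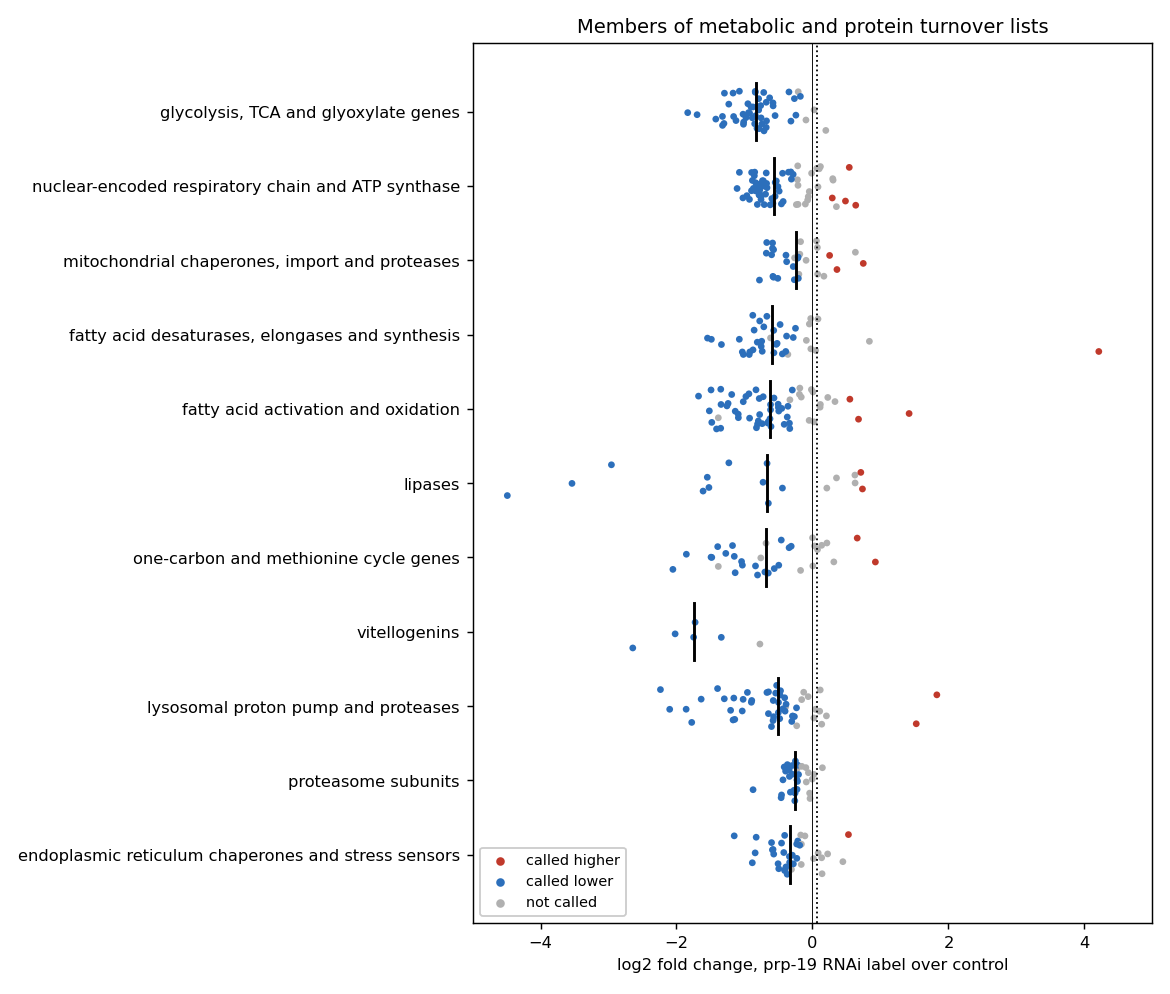
Log2 fold change (prp-19 RNAi label over control, TMM scaling) of each tested member of 11 metabolic and protein turnover lists. Points are genes coloured by their call, black bars are list medians and the dotted line is the all-gene median of 0.06; the glycolysis and TCA list lies almost wholly to the left (median -0.84), and fat-7 stands alone at 4.21 on the right. The proteasome, endoplasmic reticulum and mitochondrial chaperone medians turn positive with library totals.

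Lipid genes fell on the synthetic and on the oxidative side. Of 38 tested genes of fatty acid synthesis, elongation and desaturation, 28 fell and 1 rose (median -0.59). Of 60 genes of fatty acid activation and oxidation, 44 fell and 3 rose (median -0.62). With library totals the synthesis list had 16 lower and 9 higher (median -0.13), and the oxidation list 24 lower and 9 higher (median -0.14). The fatty acid synthase gene fasn-1 went from 846, 739 and 804 CPM to 206, 331 and 282 CPM (log2 fold change -1.54, SE 0.13). The acyltransferase gene acl-4, of glycerolipid synthesis, fell by 1.34 (SE 0.09). The single riser of the synthesis list under TMM scaling was the stearoyl-CoA desaturase gene fat-7. It was at 1.11, 1.77 and 0.529 CPM in controls and 26.3, 24 and 13.4 CPM in the labelled group (log2 fold change 4.21, SE 0.38, adjusted p = 3.21e-07). It thus rose from a very low level while most of its list fell. Of 17 tested lipases 11 fell and 2 rose, or 11 and 5 without labelled replicate 3 and 7 and 6 with library totals. The lysosomal lipase gene lipl-3 fell from 20.2, 18.8 and 20.6 CPM to 2.35, 2.35 and 2.99 CPM (log2 fold change -2.96, SE 0.19), with srw-107 at the same locus. One-carbon and methionine cycle genes had 20 of 33 lower and 2 higher (median -0.68), or 15 lower and 10 higher with library totals (median -0.22). In that list cbl-1, a cystathionine beta-lyase, fell by 1.85 (SE 0.10). In the same list hphd-1, an enzyme of the propionate shunt, fell by 1.49 (SE 0.30), or by 2.04 without labelled replicate 3.

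Yolk protein transcripts were lower, with a wide spread. The level of vit-5 was 78760, 78320 and 90740 CPM in controls and 6392, 10230 and 23060 CPM in the labelled group (log2 fold change -2.64, SE 0.42, adjusted p = 0.000619). Replicate 3 held the highest value of its group, and without it the log2 fold change was -3.34. Of the 6 vitellogenin genes 5 were called lower (median -1.74), and all 6 without replicate 3 (median -2.44). The log2 fold changes were -1.73 (SE 0.42) for vit-1, -1.34 (SE 0.38) for vit-2, -2.02 (SE 0.39) for vit-3 and -1.75 (SE 0.37) for vit-4, or -2.50, -1.99, -2.65 and -2.38 without replicate 3. That of vit-6 was -0.77 (SE 0.32, adjusted p = 0.0705), and -1.27 (adjusted p = 0.0015) without replicate 3. The vit-2 call was lost without labelled replicate 2 (adjusted p = 0.0531). The vit-2, vit-3 and vit-4 loci each overlap another gene, and the near-identical members can share reads. As a share of counts the family fell from 23.5% ± 1.97 (SD, n = 3) to 11.6% ± 5.51 (SD, n = 3), a difference of -11.9 percentage points, between -14.9 and -9.51 when each library was left out (exact two-sided permutation p = 0.1, the smallest possible). Among lipid-binding proteins 7 of 20 fell and 6 rose, or 4 and 11 with library totals. In that list far-3 fell from 2426, 2728 and 2590 CPM to 418, 389.9 and 653 CPM (log2 fold change -2.41, SE 0.16), with far-5 overlapping it.

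Genes of protein turnover were mostly lower under TMM scaling. Of 33 proteasome subunits 23 fell and none rose, with a median of -0.25 that turned to 0.23 with library totals. The ubiquitin receptor rpn-13 was at 77.2, 76.0 and 75.3 CPM against 57.3, 52.6 and 56.1 CPM (log2 fold change -0.46, SE 0.07, and 0.02 with library totals). Lysosomal proton pump and protease genes had 39 of 52 lower and 2 higher (median -0.50, or -0.02 with library totals). The protease gene asp-13 fell by 2.24 (SE 0.19), whereas cpr-1, a cathepsin B-like protease, rose from 151, 152 and 189 CPM to 545, 509 and 692 CPM (1.83 on the log2 scale, SE 0.11). Autophagy genes had 6 of 27 higher and 7 lower, or 18 and 1 with library totals.

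Cytosolic chaperones were called in shares near those over all genes. Of 42 heat shock and chaperonin genes 12 rose and 12 fell (median -0.10), with 11 and 20 when labelled replicate 3 was left out and 22 and 2 with library totals (median 0.38). Their summed level was 4431, 4673 and 4648 CPM in controls and 5004, 5058 and 5970 CPM in the labelled group. The inducible gene hsp-70 was at 179.5, 183 and 205 CPM in controls and 26.5, 25.6 and 137 CPM in the labelled group, so 1 library decided its size: the log2 fold change was -1.60 (SE 0.57, adjusted p = 0.0403) with replicate 3 and -2.89 without it. Its call was lost when any one of the other 5 libraries was left out, with adjusted p from 0.0731 to 0.0988. It was also lost in the 6 libraries alone (adjusted p = 0.156) and with library totals (adjusted p = 0.0661). The small heat shock gene hsp-16.41 had the same pattern, at -1.25 (SE 0.44, adjusted p = 0.0359) and -2.13 without replicate 3. The hsp-16.41 call was likewise lost without any one of the other 5 libraries (adjusted p from 0.0611 to 0.103). In the 6 libraries alone it had adjusted p = 0.125, and with library totals 0.087. In contrast hsp-43, another small heat shock gene, rose from 459, 459.7 and 473 CPM to 1354, 1321 and 1128 CPM (1.45 on the log2 scale, SE 0.07). In the endoplasmic reticulum list 25 of 37 fell and 1 rose (29 and 2 without labelled replicate 3), with a median of -0.34 that turned to 0.14 with library totals. The single riser with all libraries was the disulfide isomerase gene pdi-1 (0.53, SE 0.07). The transcription factor atf-4, known for its part in the integrated stress response, fell from 145, 153 and 157 CPM to 62.4, 69.9 and 72.5 CPM (log2 fold change -1.15, SE 0.07, adjusted p = 1.71e-10).

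Under TMM scaling detoxification, redox and metal genes fell more often than they rose, with single members rising by large amounts. Of 39 tested glutathione S-transferases 18 fell and 3 rose (median -0.49), or 17 and 5 without labelled replicate 3. With library totals 12 fell and 9 rose (median -0.007). The level of gst-4, a gene widely used as a reporter of the oxidative stress factor SKN-1, was 149, 172 and 164 CPM in controls and 34.6, 37.8 and 44.8 CPM in the labelled group (log2 fold change -2.05, SE 0.09, adjusted p = 1.29e-12), at a locus overlapping dhs-12. In the same family gst-24 went from 37.1, 33.1 and 36.9 CPM to 520.5, 448 and 532 CPM (3.81 on the log2 scale, SE 0.10, adjusted p = 4.26e-16). The pair moved in opposite directions with no overlap in either.

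Cytochrome P450 genes had 23 of 59 lower and 14 higher, with a median of -0.26 that turned to 0.24 with library totals. UDP-glucuronosyltransferases had 30 of 57 lower and 14 higher, with a median of -0.41 that turned to 0.08. The P450 gene cyp-35A5 fell from 14, 16.5 and 12.3 CPM to 1.05, 1.18 and 0.39 CPM (log2 fold change -3.97, SE 0.25), and cyp-35B2 fell by 3.10 (SE 0.18). The glucuronosyltransferase gene ugt-27 fell by 3.79 (SE 0.25). ABC transporters had 22 of 48 lower and 13 higher, with a median of -0.21 that turned to 0.27 with library totals (7 lower and 24 higher). The P-glycoprotein gene pgp-8 rose from 16.4, 14 and 16.2 CPM to 212, 234 and 214 CPM (3.82, SE 0.10).

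Oxidative stress and thiol genes had 23 of 37 lower and 4 higher, with a median of -0.47 that became 0.01 with library totals. The sulfide oxidation gene sqrd-1 fell from 111, 119.6 and 119.7 CPM to 9.26, 9.31 and 17.8 CPM (log2 fold change -3.29, SE 0.18), and the glutathione peroxidase gene gpx-7 fell by 3.33 (SE 0.20). Metal response genes had 18 of 30 lower and 6 higher (median -0.50, or -0.02 with library totals). The metallothionein gene mtl-1 was at 728, 792 and 785 CPM in controls and 38.7, 40.8 and 69.2 CPM in the labelled group (log2 fold change -3.96, SE 0.20, adjusted p = 2.34e-08). The ferritin gene ftn-1, which stores iron, fell by 2.67 (SE 0.22). Unlike these, numr-1, a nuclear gene of the metal response, rose from 0.477, 0.886 and 1.23 CPM to 21.5, 20.6 and 19.4 CPM (4.56 on the log2 scale, SE 0.21).

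**Figure D4:**
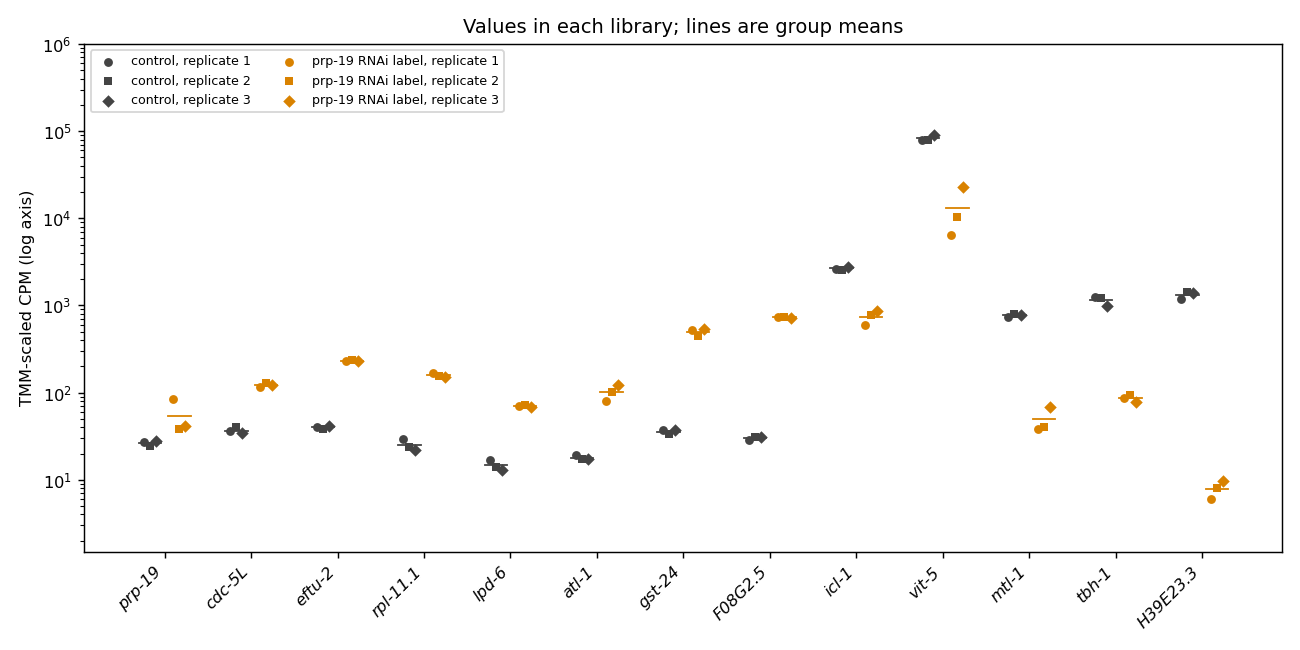
TMM-scaled CPM (log axis) of 13 genes in each of the 6 libraries, with group means as lines and marker shapes for the replicate number. The groups do not overlap for any of these genes; prp-19 itself is higher in the labelled group (84.1, 37.9 and 40.9 against 24.3 to 28 CPM), vit-5 is lower with a wide spread (6392 to 23060 CPM), and H39E23.3 is at 5.98 to 9.75 CPM against 1199 to 1412 CPM.

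Defence genes were divided by family. Of 94 tested C-type lectins 45 fell and 24 rose, with a median of -0.41 that turned to 0.06 with library totals, and clec-218 fell by 3.51 (SE 0.20). Of 11 tested lysozymes, enzymes that break bacterial cell walls, 7 rose and 3 fell (median 0.82). The invertebrate-type lysozyme gene ilys-2 rose from 1.59, 2.83 and 2.47 CPM to 55.7, 53.4 and 70.1 CPM (4.70, SE 0.18, adjusted p = 1.4e-13). The log2 fold changes of the other risers were 3.13 (SE 0.31) for lys-3, 2.07 (SE 0.21) for lys-4, 2.04 (SE 0.29) for ilys-3, 0.82 (SE 0.14) for ilys-4 and 0.29 (SE 0.07) for lys-1. The gene lys-10 had 3 counts over the control libraries and 77 over the labelled ones, a ratio of 17.7 (95% interval 5.84 to 87.7, counting error only). In contrast lys-7 fell from 3441, 3454 and 3750 CPM to 2440, 2376 and 2504 CPM (log2 fold change -0.54, SE 0.06), a call lost with library totals (-0.06, adjusted p = 0.45). The called falls of lys-2 (-0.28, SE 0.07) and lys-8 (-0.27, SE 0.08) turned to rises with library totals (0.21 and 0.20), and ilys-5 was not called (-0.20, SE 0.11, adjusted p = 0.13).

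Other immune effectors split evenly under TMM scaling, with 29 of 76 higher and 29 lower, or 41 and 19 with library totals. The infection response gene irg-4 fell from 280.3, 333 and 284 CPM to 16.2, 17.6 and 37.8 CPM (log2 fold change -3.66, SE 0.27). The gene irg-2 rose by 2.76 (SE 0.45), from 8.44, 10.4 and 10.1 CPM to 80.9, 86.1 and 27.2 CPM, with replicate 3 again closest to the controls. The epidermal antimicrobial peptide gene nlp-34 rose by 3.46 (SE 0.14) and nlp-29 by 1.70 (SE 0.12). The pals family, whose members answer to intracellular infection, had 9 of 21 higher and 3 lower (median 0.34), or 10 and 5 without labelled replicate 3. Of 107 tested F-box genes, which bring targets to ubiquitin ligases, 35 rose and 18 fell (median 0.29), and fbxa-163 rose from 3.66, 3.72 and 4.58 CPM to 91.8, 83.8 and 90.6 CPM (4.47, SE 0.13, adjusted p = 3.35e-15).

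Collagen genes of the cuticle rose in number but not in summed level. Of 111 tested genes named col, 67 rose and 21 fell, 62 and 6 of them by at least 2-fold (median 1.65). Yet the summed level of the family was 83410, 87590 and 88490 CPM in controls and 67620, 66220 and 75450 CPM in the labelled group. The level of col-101 fell from 7289, 7411 and 7505 CPM to 3080, 3117 and 3031 CPM (log2 fold change -1.27, SE 0.06), and col-13 rose from 0.796, 1.24 and 3.0 CPM to 56.8, 45.7 and 36.9 CPM (4.80, SE 0.27). The family's share of raw counts moved the other way, from 7.09% to 7.96%, since TMM scaling sets the labelled libraries lower. Of 20 tested collagens named for body shape, 12 rose and 1 fell (median 1.82), or 8 and 1 without labelled replicate 3. Among these dpy-13 was at 5.57, 0.177 and 3.70 CPM against 27.3, 11.1 and 21.2 CPM (2.61, SE 0.66, adjusted p = 0.00831). Replicate 2 was the lowest in both groups for this gene. Transthyretin-related genes had 24 of 45 higher and 7 lower (median 0.49), and the glutamine-rich abu and pqn genes 22 of 47 higher and 4 lower (median 0.30). Basement membrane genes split 12 higher and 10 lower of 26, or 14 and 4 with library totals. The laminin gene lam-1 was up by 1.20 (SE 0.11) and cle-1, the type XVIII collagen gene, down by 1.88 (SE 0.16). Hedgehog-related and patched-related genes split 17 higher and 21 lower of 54, or 27 and 13 with library totals. Moulting genes split 11 and 13 of 42, or 8 and 13 without labelled replicate 3 and 23 and 4 with library totals.

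Most cell cycle genes rose. Of 45 tested cell cycle and DNA replication genes, 32 were higher and 1 lower, 19 of the risers by at least 2-fold (median 0.92). The replication clamp gene pcn-1 was at 2.87, 2.66 and 3.35 CPM in controls and 8.21, 7.92 and 7.41 CPM in the labelled group (log2 fold change 1.41, SE 0.20, adjusted p = 5.62e-06), and the ribonucleotide reductase gene rnr-2 rose by 1.39 (SE 0.16). Of 34 apoptosis and DNA damage genes 18 rose, 4 fell and 12 were not called (median 0.67). Under TMM scaling the summed level of the list fell from 1225, 1236 and 1255 CPM to 974.9, 1042 and 1117 CPM. The TMM factors were 0.837, 0.839 and 0.783 in controls and 1.26, 1.16 and 1.01 in the labelled group. Without these factors that sum was higher in the labelled group. The checkpoint kinase gene atl-1, the worm counterpart of ATR, went from 19.1, 17.2 and 17.3 CPM to 79.4, 101 and 122.3 CPM (log2 fold change 2.49, SE 0.14, adjusted p = 1.05e-10). The repair gene rad-50 rose by 2.07 (SE 0.14), whereas nuc-1, a nuclease that digests the DNA of dead cells, fell by 1.35 (SE 0.18). Most of 83 listed histone genes had too few counts in this polyadenylated RNA. Of 18 tested, 8 fell and 4 rose, with a median of -0.23 that turned to 0.25 with library totals.

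Of 58 listed germline and oocyte genes 46 had enough counts to test in these worms. Of these 25 rose and 5 fell (median 0.80), or 20 and 5 without labelled replicate 3. The level of mex-3, an RNA-binding protein of oocytes and early embryos, was 2.71, 2.66 and 0.705 CPM in controls and 23.3, 28.5 and 23.9 CPM in the labelled group (log2 fold change 3.62, SE 0.22, adjusted p = 6.54e-11). The germ granule helicase gene glh-1 went from 40.4, 31.5 and 27.9 CPM to 150.2, 154 and 127 CPM (2.11, SE 0.11), and the meiosis regulator gld-1 rose by 2.96 (SE 0.23). The summed level of the list fell all the same, from 6171, 6205 and 4403 CPM to 2428, 2769 and 2249 CPM. Much of that sum was perm-4, an eggshell gene, at 3771, 3736 and 2593 CPM in controls and 1136, 1195 and 954 CPM in the labelled group (log2 fold change -1.62, SE 0.16). Sperm genes had 39 of 144 tested, of which 19 fell and 8 rose, with a median of -0.43 that turned to 0.04 with library totals. The gene ssp-10 of that list fell by 3.89 (SE 0.33) and ssp-35 rose by 3.05 (SE 0.20).

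Of 29 intestinal markers 18 fell and 5 rose (median -0.48, or -0.01 with library totals). The intestinal proton pump gene vha-6 went from 1029, 1026 and 1178 CPM to 282, 305 and 454 CPM (log2 fold change -1.64, SE 0.14), and the gut esterase gene ges-1 fell by 0.93 (SE 0.09), while elt-2 was not called (0.18, SE 0.11, adjusted p = 0.172). Muscle markers had 12 of 47 higher and 4 lower (median 0.14), pharyngeal markers 13 of 20 higher and 1 lower (median 0.64) and hypodermal markers 13 of 28 higher and 6 lower. The pharyngeal myosin gene myo-1 was at 64.3, 40.6 and 29.8 CPM in controls and at 116 ± 3.27 CPM (SD, n = 3) in the labelled group (1.36, SE 0.24). Neuron markers had 17 of 49 higher and 10 lower, with a median of 0.19 that was 0.05 without labelled replicate 3. Their summed level was lower under TMM scaling, at 3754, 3441 and 3309 CPM in controls and 2602, 2777 and 2595 CPM in the labelled group. Without the TMM factors these sums overlapped between groups. The mean fall of the single gene tbh-1, given below, was larger than the TMM-scaled difference between these sums. The sum thus does not show a fall of most neuron markers. Neuropeptide genes had 48 of 104 higher and 8 lower (median 0.42), although nlp-39 fell from 9.07, 14.5 and 10.6 CPM to no count in any labelled library. Over the groups these were 199 counts and 0 counts, at least 96.2-fold lower with a floor of 3 counts over the group.

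Markers of coelomocytes, glia, the excretory system and the gonad sheath had 11 of 30 members higher and 5 lower (median 0.29). A pair of genes known for their expression in the sheath cells of the somatic gonad fell sharply. They were chosen after their values were seen, so they do not stand for sheath cell genes as a group. Only 1 member of the list fell by at least 2-fold, so the pair does not both belong to it. The level of tbh-1, the octopamine synthesis enzyme also made in a pair of neurons, was 1253, 1223 and 996 CPM in controls and 87.5, 93.2 and 77.5 CPM in the labelled group (log2 fold change -3.75, SE 0.19, adjusted p = 1.17e-08). Its locus overlaps suox-1 and H13N06.7. The innexin gene inx-8, whose gap junctions link sheath cells to germ cells, was at 168, 179 and 154 CPM against 19.7, 18.9 and 16.1 CPM (log2 fold change -3.19, SE 0.09, adjusted p = 3.35e-15).

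Regulatory genes gave mixed directions. Of 177 tested nuclear hormone receptors 46 fell and 37 rose (median -0.02), or 8 and 95 with library totals (median 0.45). The receptor gene nhr-17 fell from 115, 121 and 149 CPM to 17.9, 17.8 and 45.2 CPM (log2 fold change -2.27, SE 0.32, or -2.87 without labelled replicate 3), and nhr-6 rose by 2.76 (SE 0.63). Insulin-like and insulin pathway genes had 7 of 30 higher and 5 lower, with ins-19 at 13.8, 16.8 and 15.5 CPM against 0.352, 1.07 and 0.13 CPM (log2 fold change -4.78, SE 0.33). The kinase gene pdk-1, which acts downstream of the insulin receptor, fell by 1.32 (SE 0.10). Genes listed as targets of the insulin-regulated factor DAF-16 had 26 of 38 lower and 4 higher (median -0.77, or -0.29 with library totals). AMPK and TOR genes had 13 of 26 lower and 5 higher, with a median of -0.24 that turned to 0.24 with library totals. The TOR kinase gene let-363 fell by 0.96 (SE 0.18).

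The largest single changes by the naming rule lay mostly outside these lists. The gene H39E23.3 fell from 1199, 1412 and 1390 CPM to 5.98, 8.03 and 9.75 CPM (log2 fold change -7.40, SE 0.13, adjusted p = 4.98e-18). The gene F08G2.5 rose from 28.5, 30.6 and 31 CPM to 736, 728 and 722 CPM (4.60, SE 0.09, adjusted p = 6.28e-18). Both had narrow groups set far apart. The gene dct-8 fell from 55.5, 64.5 and 49.5 CPM to 0.352, 0.107 and 0.26 CPM, and F56D6.8 from 77.3, 95.3 and 86.0 CPM to 0.352, 0.535 and 0 CPM. The log2 fold changes were -6.46 (SE 0.13) for F54F7.2, -5.63 (SE 0.12) for skpo-1, a peroxidase gene, and -4.67 (SE 0.10) for D1086.3. The gene scl-20, of the cysteine-rich secretory family, had 316 counts over the controls and 3 over the labelled libraries, a ratio of 153 (95% interval 51.8 to 744, counting error only). The highest fitted rise was that of C42D4.3, from 0.159, 0 and 1.94 CPM to 57.5, 37.1 and 27.7 CPM (5.87, SE 0.60).

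The same RNAi label was compared in the 6 libraries that also carried atp-2 RNAi, which share none with the 6 above. There 6808 genes (53.0%) were called, 3407 higher and 3401 lower. In both settings 5215 genes were called, of which 4980 had the same direction, 66.2% of the genes called without atp-2 RNAi and 73.1% of those called with it. The difference between the settings was itself called in 2476 genes (19.3%). The Prp19 complex list had 18 of 19 members higher with atp-2 RNAi (median 1.04), the core spliceosome 51 of 58 (median 1.06) and ribosome assembly 29 of 36 (median 0.71). Glycolysis and TCA genes had 47 of 51 lower again (median -1.11).

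Some lists had other counts in the atp-2 RNAi setting, and these list differences were not tested. No vitellogenin gene was lower with atp-2 RNAi, and 2 of 6 were higher (median 0.28). The control group of that setting already had a lower share of vitellogenin counts. It was 11.65%, 12.47% and 11.96% in controls with atp-2 RNAi, against 22.9%, 21.9% and 25.7% in controls without it. With both the prp-19 label and atp-2 RNAi the share was 12.41%, 12.27% and 14.01%. The difference between settings was called for vit-5 (2.49 on the log2 scale) and for vit-3 (3.59). The cell cycle list had 17 of 45 higher and 3 lower with atp-2 RNAi (median 0.29), and pcn-1 was not called there (0.30, adjusted p = 0.164). Neuropeptide genes had 16 of 104 higher and 6 lower (median 0.10). Mitochondrial ribosomal proteins had 1 of 70 higher and 53 lower (median -0.52). Lysozymes had 10 of 11 higher and none lower (median 2.43). For tbh-1 the log2 fold change was -3.75 without atp-2 RNAi and -0.55 with it, and the difference of 3.2 was called. The level of prp-19 itself did not pass the test with atp-2 RNAi (0.07, adjusted p = 0.887).

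**Figure D5:**
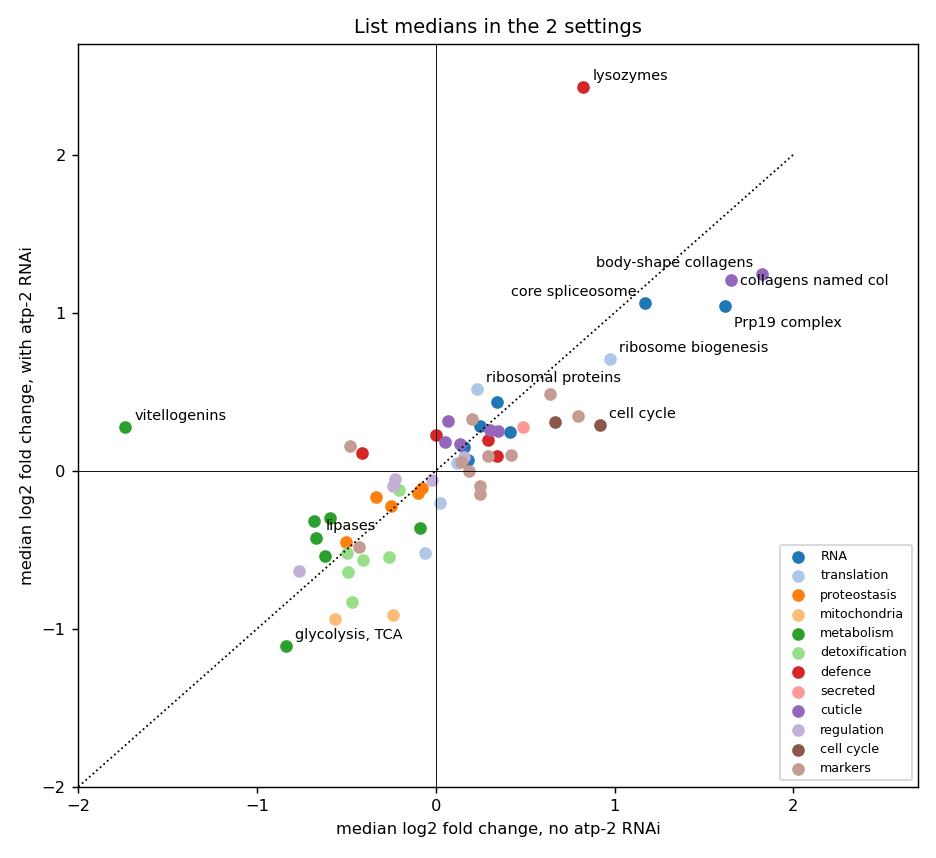
Median log2 fold change of each of 63 gene lists for the prp-19 RNAi label without atp-2 RNAi (x axis) and with it (y axis), TMM scaling, with equal values on the dotted line. Most lists lie near the line; vitellogenins (-1.74 and 0.28) and lysozymes (0.82 and 2.43) lie far above it, and cell cycle genes (0.92 and 0.29) below it. With library totals 17 of the 29 medians below 0 on the x axis turn positive.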

How the data were processed

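Whole-worm polyadenylated RNA (total RNA extracted with TRIzol, per the labels' protocols) was sequenced in 12 libraries, 4 groups of 3. The authors deposited raw read counts per gene in 1 table with symbols and locus tags. Per the submitters' processing notes the tools were FastQC, STAR 2.7.5c, HISAT2 2.1.0, R 4.0.5 and DESeq2, with builds ce11 and WBcel235. The counting program, the strand setting and how reads shared by near-identical genes were counted have no statement in the labels or file headers. For this reason, overlapping genes and close paralogs are uncertain. Overlaps are named above for some genes only. Printed genes that overlap another gene without such a mark include smgl-2, rsp-7, rnp-6, prg-1, mdt-15, eif-2A, wars-1 and hsp-70. Raw counts were tested as deposited with edgeR 4.0.16 in R 4.3.3 (limma 3.58.1): filterByExpr with a minimum count of 10, TMM factors, and a robust quasi-likelihood fit with 1 coefficient per group over all 12 libraries, which leaves 8 residual degrees of freedom. Contrasts were the label effect without atp-2 RNAi, the same with it, and their difference. Genes with a Benjamini-Hochberg adjusted p under 0.05 over the 12850 genes tested were called. CPM values are per TMM-scaled library size. Gene classes used the Ensembl 115 annotation of WBcel235, to which 45050 of 45132 locus tags matched. Lists were described by counts and medians, with no set test. The members, the 63 lists and the choice of genes were made with earlier results of these data known. Named genes were prp-19 and atp-2, the 15 highest and 15 lowest called genes with at least 5 CPM and no overlap, the 2 highest and 2 lowest such members of each list, and every member of lists with up to 12 tested. A selection of these 260 genes is printed, and cdc-5L, plrg-1, bcas-2, prp-8, glh-1 and the tissue markers elt-2, ges-1, unc-54, unc-119 and col-19 were added beside the rule. The fitting script was tested on simulated counts. Intervals cover counting error only. DESeq2 1.42.0 was an alternative.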

Additional observations from a re-analysis of the deposited data

Results flagged for a closer look

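The following genes had a difference between settings that passed the test of the difference itself (edgeR interaction contrast, adjusted p under 0.05). Each value is the log2 fold change of the prp-19 RNAi label with atp-2 RNAi minus that without it, each from 3 against 3 libraries. No explanation was tested. The gene atp-2 differed by 1.59, where the libraries with atp-2 RNAi carry its own knockdown.

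A positive difference on a fall without atp-2 RNAi was found for many metabolic genes, so that the fall was smaller, lost or turned round with atp-2 RNAi. It was 2.02 for vit-1, 3.59 for vit-3, 3.19 for vit-4 and 2.49 for vit-5. In lipid and amino acid metabolism it was 0.89 for fasn-1, 0.70 for acl-4, 2.0 for ech-9, 1.72 for lipl-3, 1.18 for lipl-1, 1.57 for far-3 and 0.58 for cbl-1. In detoxification it was 2.91 for cyp-35A5, 1.38 for cyp-35B2 and 1.03 for gpx-7. In defence it was 2.42 for clec-218, 1.44 for irg-4, 0.82 for lys-7 and 0.78 for lys-8. Among other genes it was 0.60 for csr-1, 0.58 for atf-4, 0.71 for pdk-1, 1.61 for cle-1, 1.44 for nuc-1, 1.41 for perm-4, 2.31 for his-38, 3.2 for tbh-1, 1.51 for inx-8, 0.45 for ges-1, 1.20 for H39E23.3, 5.59 for F54F7.2, 3.14 for skpo-1 and 1.55 for D1086.3. For nlp-39 it was 6.40, a fitted value against a group with no count and so no measure of size. These values compare fold changes and do not show that a level was restored. Mean F54F7.2 was 214.7 CPM in controls and 4.66 CPM in controls with atp-2 RNAi. With the prp-19 label it was 2.42 CPM without atp-2 RNAi and 2.58 CPM with it. For H39E23.3 the control means were closer, at 1333 CPM without atp-2 RNAi and 818 CPM with it.

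A positive difference on a rise was 1.62 for cpr-1, 1.82 for ilys-3, 0.78 for lys-1, 1.05 for nlp-34, 0.80 for nlp-29 and 1.22 for F08G2.5. The gene ilys-5, not called without atp-2 RNAi, differed by 2.63.

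A negative difference on a rise, so that the rise was smaller or lost with atp-2 RNAi, was -0.41 for syf-1, -0.44 for cdc-5L, -0.75 for rpl-11.1, -0.67 for rpl-24.2, -0.47 for wars-1, -0.62 for eif-2A, -0.86 for pgp-8, -1.70 for fbxa-163, -0.98 for hrde-1, -1.54 for prg-1, -1.11 for pcn-1, -0.80 for rad-50, -2.29 for mex-3, -0.69 for glh-1 and -0.72 for col-19. A negative difference on a fall, so that the fall was larger with atp-2 RNAi, was -0.83 for hrpa-2, -0.63 for mrpl-38 and -0.29 for sdhb-1.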

How the results depend on the processing

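Scaling moved the balance of directions most. With library totals 7374 genes were higher and 1591 lower, and with totals outside the vitellogenins 5798 and 2333, against 3859 and 3661 with TMM. The median over all genes was 0.54 and 0.34 under these, and 0.21 with no filter on low counts. The called total was 7487 with RLE factors, 6822 with DESeq2, 8074 with no filter, 7675 with the stricter filter and 6543 in a fit of the 6 libraries alone. Leaving out each library gave 6847 to 7842 called, 3437 to 3892 higher, 3384 to 3950 lower and 2748 to 3178 at least 2-fold. With atp-2 RNAi, leaving out each of those libraries gave 6096 to 6202 called, and the 6 alone 7529.

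With library totals 17 list medians changed sign, among them those of the proteasome (0.233), endoplasmic reticulum genes (0.143), mitochondrial chaperones (0.243), UDP-glucuronosyltransferases (0.075), redox genes (0.013), histones (0.248), AMPK and TOR genes (0.235) and sperm genes (0.035). With totals outside the vitellogenins 12 did, among them those of the proteasome (0.022), mitochondrial chaperones (0.031), histones (0.04) and AMPK and TOR genes (0.029). The aminoacyl-tRNA synthetase median was -0.016 with RLE factors and with DESeq2, and -0.002 to 0.056 with single libraries left out, the lowest without labelled replicate 3. Genes that changed sign with library totals were lsm-1 (0.137), rpl-41.1 (0.125), pbs-5 (0.03), rpn-13 (0.022), lys-2 (0.212), lys-8 (0.203), ilys-5 (0.279) and mlc-2 (0.182). The difference between settings for hsp-70 ran from -0.618 to 1.038 with single libraries left out, the highest without labelled replicate 3. The prp-19 call was also lost with no filter (adjusted p = 0.0741). Causes were not tested.

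Replicate numbers are shared by the groups, but same-numbered libraries of both groups deviated together only weakly (r = 0.04, 0.0618 and 0.12 across genes), so they were not taken as pairs, although every library correlated best with its own number. With the replicate block 7452 genes were called, 3813 higher and 3639 lower, and 6727 with atp-2 RNAi.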
